A study of Mus musculus with 12 samples.

Results

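The pentose phosphate pathway and 2 further NADPH-producing enzymes were examined through 10 genes in mouse liver. G6pdx, Pgls and Pgd encode the oxidative branch, Rpia, Rpe, Tkt and Taldo1 the non-oxidative branch, H6pd the enzyme of the endoplasmic reticulum that opens the same oxidative route, and Me1 and Idh1 the cytosolic malic enzyme and isocitrate dehydrogenase. The genes were chosen by name, and all 10 were found among the 23420 genes of each of 2 count tables. All 10 passed the filter on low counts in every comparison.

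The oxidative branch turns glucose 6-phosphate into a pentose phosphate and yields NADPH at both of its dehydrogenase steps, and the non-oxidative branch interconverts pentose phosphates with sugars of glycolysis. In hepatocytes, NADPH is spent on fatty acid and sterol synthesis, on cytochrome P450 reactions and on keeping glutathione and thioredoxin reduced. The transcription factor NRF2 (Nfe2l2) is known to raise several of these genes through antioxidant response elements, and it is freed when p62 (Sqstm1) binds its inhibitor KEAP1. TSC1 is a brake on the kinase complex mTORC1, whose activity is known to raise pentose phosphate genes, in part through SREBP1.

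Poly(A) RNA from liver was sequenced in 12 libraries, 3 in each of 4 groups. Tsc1/p62Δhep mice carried floxed Tsc1 and floxed p62 alleles with Alb-Cre, a Cre transgene under the albumin promoter that acts in hepatocytes, and Tsc1Δhep mice carried floxed Tsc1 with Alb-Cre. The p62Δhep mice carried floxed p62 with Alb-Cre, and p62F/F mice carried floxed p62 without Cre. All 4 groups were on a C57BL/6 background. Because p62F/F mice lack Cre, the comparison of p62Δhep with p62F/F cannot tell p62 loss apart from Cre, whereas both Tsc1-deleted groups carry Cre. Ages are not stated in the labels, 2 diets are named without saying which sample had which, and no label says whether each library was 1 animal. The p-values therefore measure the spread between these libraries, which may be technical. Tsc1/p62Δhep and Tsc1Δhep stood in 1 table and p62Δhep and p62F/F in the other, so the table and the Tsc1 genotype cannot be told apart, and levels set across tables were not tested.

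Library totals were 15792048 to 33377247 counts. Sqstm1 was at 14.0 to 19.1 CPM (counts relative to library size, with the 12 libraries scaled together) in Tsc1/p62Δhep livers, against 771 to 1166 CPM in Tsc1Δhep livers. It was at 12.7 to 20.4 CPM in p62Δhep livers, against 327 to 358 CPM in p62F/F livers. Tsc1 was at 9.12 to 13.3 CPM in Tsc1/p62Δhep and 5.27 to 10.6 CPM in Tsc1Δhep livers, and at 26.9 to 41.0 CPM in p62Δhep and 29.1 to 35.6 CPM in p62F/F livers. The hepatocyte markers were at 39010 to 138100 CPM in sum over the 12 libraries, although Ass1, a hepatocyte enzyme of the urea cycle, was at no more than 1.92 CPM in any library. The adult haemoglobin genes Hba-a1, Hba-a2 and Hbb-b1 were listed at 0 in all 4 groups. Another haemoglobin gene, Hbb-bs, was listed under an older symbol, at 39.4 to 547 CPM over the 12 libraries.

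Promoters of 3 genes are shown because their RNA levels are described first below or because they hold the core of an antioxidant response element. The sequences are from RefSeq on GRCm38.p6, 300 bases each, from 250 before to 50 after the annotated start, written 5′ to 3′ on the gene's strand. Capitals mark a match to the searched core, TGACNNNGC or its reverse complement GCNNNGTCA.
G6pdx, chrX:74428831-74429130, minus strand: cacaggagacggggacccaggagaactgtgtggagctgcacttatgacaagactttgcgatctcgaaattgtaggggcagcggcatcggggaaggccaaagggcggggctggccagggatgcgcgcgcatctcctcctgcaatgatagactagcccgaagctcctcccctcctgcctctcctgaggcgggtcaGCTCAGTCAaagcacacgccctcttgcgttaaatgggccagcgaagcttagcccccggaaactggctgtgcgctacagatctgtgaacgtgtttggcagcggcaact
Pgd, upstream start, chr4:149166656-149166955, minus strand: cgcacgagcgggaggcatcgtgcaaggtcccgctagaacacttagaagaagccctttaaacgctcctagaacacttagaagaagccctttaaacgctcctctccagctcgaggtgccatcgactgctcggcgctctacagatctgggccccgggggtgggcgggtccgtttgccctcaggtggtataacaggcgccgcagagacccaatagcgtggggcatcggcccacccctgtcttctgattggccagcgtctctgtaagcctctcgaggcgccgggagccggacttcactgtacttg
Pgd, downstream start, chr4:149166033-149166332, minus strand: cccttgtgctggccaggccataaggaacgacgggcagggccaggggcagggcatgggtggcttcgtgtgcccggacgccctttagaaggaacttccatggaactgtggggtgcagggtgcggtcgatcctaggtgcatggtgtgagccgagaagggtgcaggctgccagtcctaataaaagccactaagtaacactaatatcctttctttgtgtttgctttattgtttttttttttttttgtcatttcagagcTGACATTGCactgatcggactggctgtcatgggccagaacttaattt
Me1, upstream start, chr9:86695865-86696164, minus strand: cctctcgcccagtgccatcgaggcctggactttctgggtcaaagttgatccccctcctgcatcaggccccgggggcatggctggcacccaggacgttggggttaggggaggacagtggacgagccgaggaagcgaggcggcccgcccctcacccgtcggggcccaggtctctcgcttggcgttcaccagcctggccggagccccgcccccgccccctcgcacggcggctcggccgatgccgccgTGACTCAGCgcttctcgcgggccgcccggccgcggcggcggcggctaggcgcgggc
All 10 genes matched the promoter table, with 13 promoters among them, and 3 of the 13 held the core: G6pdx at 57 bases before the start in the reverse orientation, Me1 at 6 bases before its upstream start, and Pgd at 3 bases after its downstream start. No match lay in these windows of Pgls, Rpia, Rpe, Tkt, Taldo1, H6pd or Idh1. The upstream window of Pgd held no match either. The downstream start of Pgd lies inside the gene, and its use in liver was not tested. The match there may therefore lie outside any promoter in use. Of all 32851 promoters in the table, 12.4% held the core, and a match describes these letters only.

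The comparison of Tsc1/p62Δhep with Tsc1Δhep livers asks how loss of p62 bears on these enzymes in hepatocytes that lack Tsc1. G6pdx, Pgd and Rpia were lower in Tsc1/p62Δhep livers and Idh1 was higher, while the other 6 genes did not pass the test. These 4 of 10 were called by edgeR's quasi-likelihood test at a Benjamini-Hochberg adjusted p below 0.05, in a comparison where 24.2% of 12620 genes were called, 9.25% higher and 14.9% lower. The median log2 fold change was -0.08 over the 10 genes and -0.05 over all genes tested. The 10 genes did not move as a block: both oxidative dehydrogenases fell, while Idh1, the highest of the 10 per kilobase of exon, rose. The count was 1, 2 and 1 without Tsc1/p62Δhep library 1, 2 and 3, and 2 without Tsc1Δhep library 2. G6pdx was called in all 14 alternative analyses of this comparison.

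G6pdx encodes the enzyme that commits glucose 6-phosphate to the oxidative branch. Its gene lies at chrX:74409483-74429194 on the minus strand (GRCm38), with 3080 bases of exon. It was at 4.80, 8.03 and 4.56 CPM in Tsc1/p62Δhep livers, against 41.3, 44.6 and 26.3 CPM in Tsc1Δhep livers. The groups were far apart, and the highest Tsc1/p62Δhep library stood below the lowest Tsc1Δhep library. The means were 5.79 ± 1.94 and 37.4 ± 9.72 CPM (SD, n = 3 each), which edgeR's quasi-likelihood test put at a log2 fold change of -2.69 ± 0.33 (SE, adjusted p = 0.0025), or 6.45-fold lower in Tsc1/p62Δhep livers. The libraries behind these values had 70, 126 and 72 counts in Tsc1/p62Δhep and 988, 1684 and 576 in Tsc1Δhep. G6pdx shares 418 bases of exon (13.57% of its exon bases) with Ikbkg on the opposite strand, and the labels do not say whether strand was used in counting. Ikbkg itself was at 67.9 to 88.1 CPM in Tsc1/p62Δhep and 105 to 114 CPM in Tsc1Δhep livers, with a log2 fold change of -0.45 and an adjusted p of 0.135 by the same test.

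Pgd encodes 6-phosphogluconate dehydrogenase, which makes the NADPH of the last oxidative step (chr4:149149991-149166771, minus strand). It was at 49.2, 63.2 and 44.2 CPM in Tsc1/p62Δhep livers, against 183.6, 110.5 and 112.0 CPM in Tsc1Δhep livers. The groups did not overlap, and 1 Tsc1Δhep library stood well above the other two. In that library, number 1, the cholangiocyte and progenitor markers summed to 5080 CPM, against 2198 and 767 CPM in libraries 2 and 3. Whether this bears on its level of Pgd was not tested. Pgd averaged 52.2 ± 9.88 and 135 ± 41.8 CPM (SD, n = 3 each), 2.60-fold lower in Tsc1/p62Δhep livers, with a log2 fold change of -1.38 ± 0.28 (adjusted p = 0.0132, edgeR). Without Tsc1/p62Δhep library 1 the adjusted p was 0.0744, and without library 3 of that group it was 0.0574, at log2 fold changes of -1.32 and -1.25. Pgls, the lactonase between the 2 dehydrogenases, was at 34.1, 38.6 and 40.5 CPM in Tsc1/p62Δhep livers and 39.8, 38.1 and 28.1 CPM in Tsc1Δhep livers. Those ranges overlapped, and its log2 fold change was 0.09 ± 0.21 (adjusted p = 0.773, edgeR). The enzyme between the 2 that fell was therefore not called in either direction. Pgls shares 776 bases of exon with Fam129c on the same strand, which had at most 2.62 CPM in any library.

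**Figure D1:**
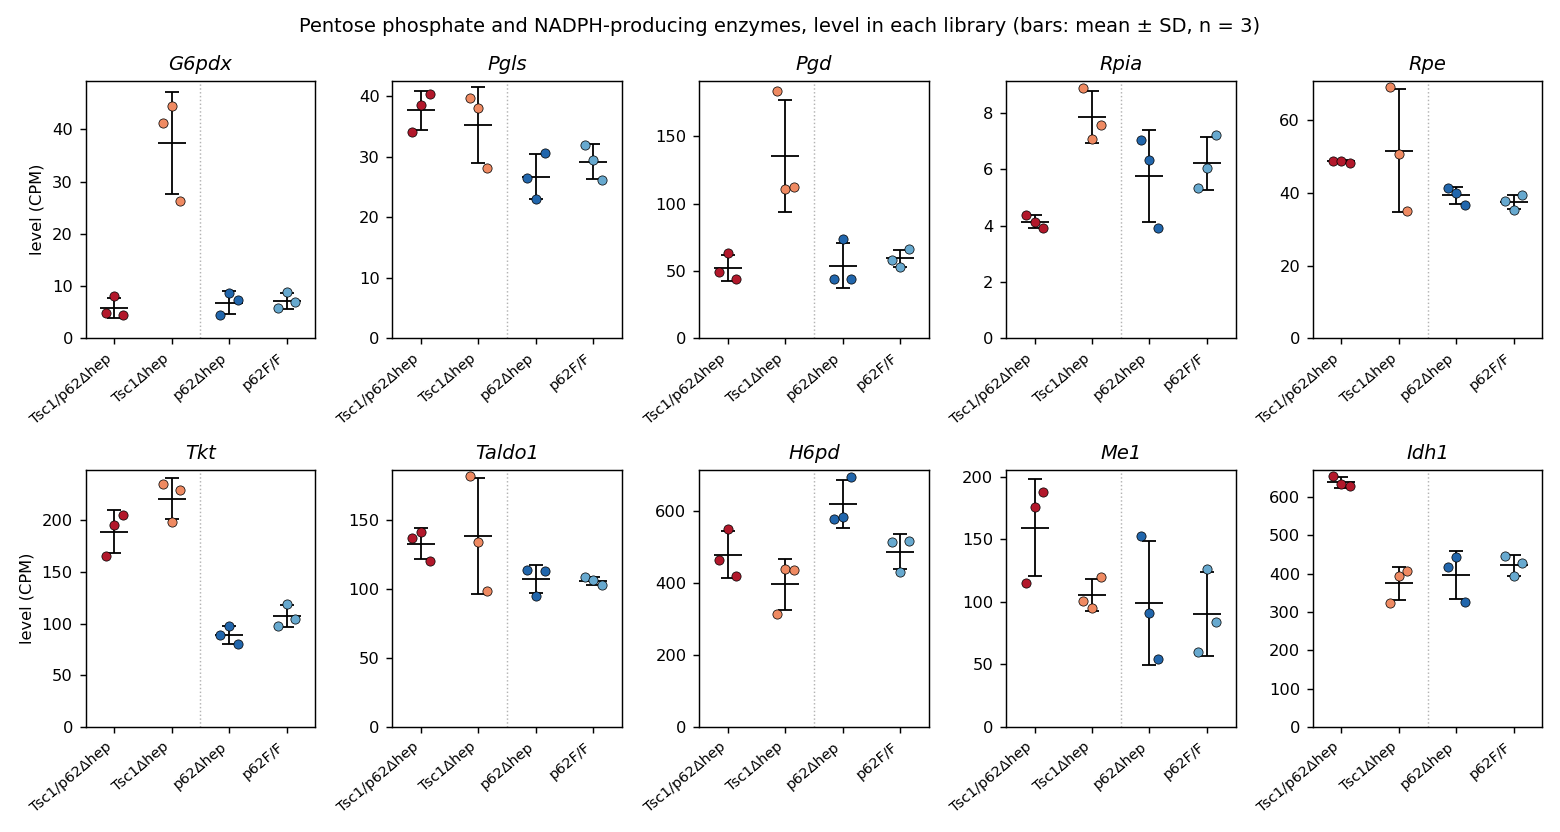
Level of each of the 10 genes in CPM (vertical axes) in the 12 libraries, by group, with points for libraries and bars for the mean ± SD (n = 3); the left pair and the right pair of groups come from separate tables. G6pdx stands at 26.3 to 44.6 CPM in Tsc1Δhep livers and at 4.43 to 8.80 CPM in all 9 libraries of the other groups.

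Rpia encodes ribose 5-phosphate isomerase, which makes the ribose 5-phosphate used for nucleotides (chr6:70765720-70792232, minus strand). It was at 4.39, 4.14 and 3.92 CPM in Tsc1/p62Δhep livers, against 8.89, 7.09 and 7.58 CPM in Tsc1Δhep livers. The ranges were well separated at this low level. The log2 fold change was -0.92 ± 0.26 (adjusted p = 0.0365, edgeR), from 191 counts over the 3 Tsc1/p62Δhep libraries and 647 over the 3 Tsc1Δhep libraries. The call was lost without Tsc1/p62Δhep library 1, 2 or 3 (adjusted p = 0.128, 0.143 and 0.102), without Tsc1Δhep library 1 or 2 (0.0572 and 0.077) and with no filter on low counts (0.063). Its log2 fold change was between -1.27 and -0.78 in all 14 alternative analyses.

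The other non-oxidative genes were not called. Rpe, the epimerase that takes the other route out of ribulose 5-phosphate, was at 48.9, 48.9 and 48.3 CPM in Tsc1/p62Δhep livers and 69.1, 50.8 and 35.1 CPM in Tsc1Δhep livers. Tkt, the transketolase that moves 2-carbon units between sugars, was at 165, 195 and 205 CPM in Tsc1/p62Δhep livers and 235, 198 and 229 CPM in Tsc1Δhep livers. Taldo1, the transaldolase that moves 3-carbon units, was at 137, 141 and 120 CPM in Tsc1/p62Δhep livers and 182, 134 and 98.9 CPM in Tsc1Δhep livers. All 3 had overlapping ranges, and for Rpe and Taldo1 the Tsc1Δhep libraries were spread on both sides of the Tsc1/p62Δhep libraries. Their log2 fold changes were -0.09 ± 0.27, -0.23 ± 0.21 and -0.06 ± 0.26 in the order Rpe, Tkt, Taldo1, with adjusted p-values of 0.825, 0.437 and 0.875 (edgeR). Rpe shares 558 bases of exon with Kansl1l on the opposite strand, which was at 11.01 to 19.3 CPM in all 12 libraries.

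Idh1, cytosolic isocitrate dehydrogenase, makes NADPH outside the pentose phosphate pathway (chr1:65158616-65186500, minus strand). It was at 655, 633 and 629 CPM in Tsc1/p62Δhep livers, against 325, 394 and 406 CPM in Tsc1Δhep livers. Every Tsc1/p62Δhep library was above every Tsc1Δhep library. The means were 639 ± 14.0 and 375 ± 43.8 CPM (SD, n = 3 each), 1.70-fold higher in Tsc1/p62Δhep livers, with a log2 fold change of 0.77 ± 0.21 (adjusted p = 0.0356, edgeR). Scaled by library totals alone, which moves the median of all genes by -0.35 on the log2 scale, the log2 fold change of Idh1 was 0.41 (adjusted p = 0.202). Its call was also lost without any 1 of the Tsc1/p62Δhep libraries (adjusted p = 0.133, 0.134 and 0.0834 without library 1, 2 and 3) and without Tsc1Δhep library 2 (0.0981).

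Me1, the cytosolic malic enzyme, makes NADPH while turning malate into pyruvate. It was at 115, 175 and 187 CPM in Tsc1/p62Δhep livers and 101, 95.4 and 120 CPM in Tsc1Δhep livers. Of the Tsc1/p62Δhep libraries 1 lay within the Tsc1Δhep range, and the log2 fold change was 0.60 ± 0.25 (adjusted p = 0.116, edgeR). In Tsc1/p62Δhep livers Me1 was lowest in library 1. That library had 1.21% of its counts in the ribosomal RNA gene Rn45s, against 0.0872% and 0.181% in libraries 2 and 3. Every Tsc1-intact library had a higher share, the lowest being p62Δhep library 2 at 1.909%, so Rn45s also differed between the tables. Tsc1 was at 10.6 CPM in Tsc1Δhep library 3 but at 5.55 and 5.27 CPM in libraries 1 and 2. The level in library 3 lay within the 9.12 to 13.3 CPM of Tsc1/p62Δhep livers. Without Tsc1/p62Δhep library 1 and Tsc1Δhep library 3, a pair chosen after seeing the data, G6pdx, Pgd and Me1 were called, 3 of 10. Me1 was then at a log2 fold change of 0.91 (adjusted p = 0.0356, edgeR). H6pd, which couples NADPH supply in the endoplasmic reticulum to steroid reduction, was at 464, 551 and 421 CPM in Tsc1/p62Δhep livers and 313, 439 and 436 CPM in Tsc1Δhep livers. Its ranges overlapped, at a log2 fold change of 0.27 ± 0.24 (adjusted p = 0.423, edgeR). Of the 10 genes, 4 had ranges that did not overlap, 3 lower and 1 higher, as did 45.8% of all genes tested (23.3% lower, 22.5% higher). DESeq2 called the same number, 4 of 10, where it called 32.9% of all genes, and 5 had an unadjusted p below 0.05 by edgeR, where 39.7% of all genes did. These counts do not set the list apart from other genes.

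**Figure D2:**
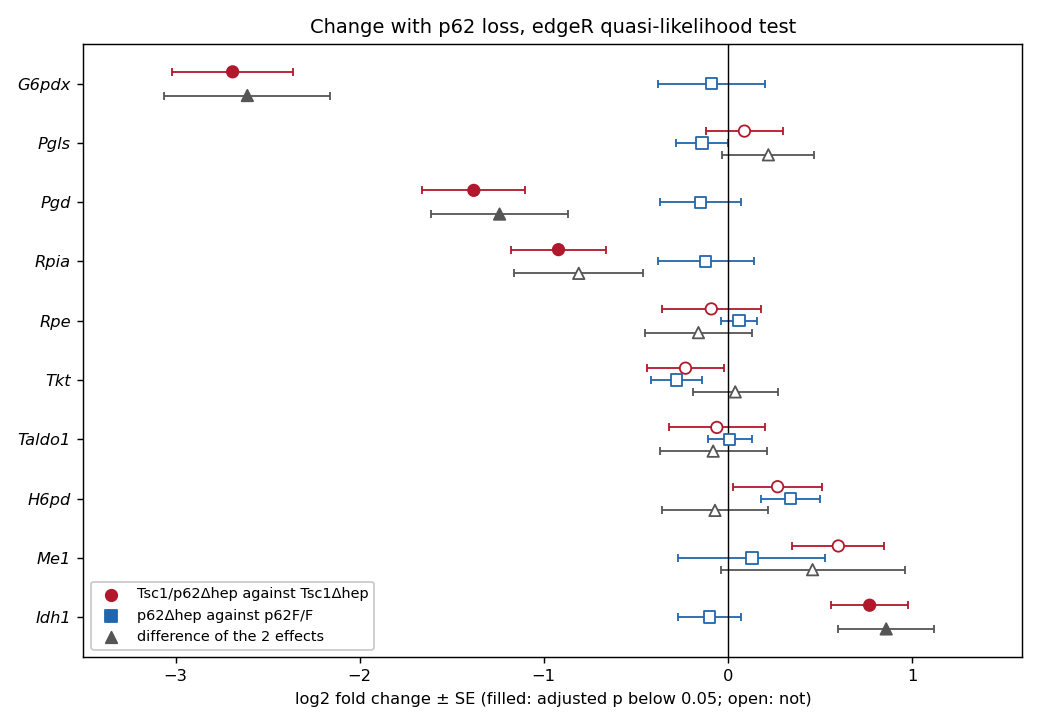
Log2 fold change (horizontal axis, bars ± SE) of each gene in Tsc1/p62Δhep against Tsc1Δhep, in p62Δhep against p62F/F, and the difference between these effects; filled symbols have an adjusted p below 0.05 by edgeR. G6pdx stands at -2.69, Pgd at -1.38, Rpia at -0.92 and Idh1 at 0.77 in the Tsc1-deleted comparison, and all 10 symbols of p62Δhep against p62F/F are open.

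The comparison of p62Δhep with p62F/F asks the same in liver with intact Tsc1, with Cre as a second difference. None of the 10 genes was called by edgeR's quasi-likelihood test, in a comparison where 0.0159% of 12567 genes were called. DESeq2 also called none of the 10 (1.34% of all genes), and none had an unadjusted p below 0.05 by edgeR, against 8.12% of all genes. G6pdx was at 4.43, 8.71 and 7.34 CPM in p62Δhep livers and 5.81, 8.80 and 7.01 CPM in p62F/F livers, a log2 fold change of -0.09 ± 0.29 (adjusted p = 0.957, edgeR). Pgd was at 44.4, 73.4 and 44.0 CPM in p62Δhep livers and 58.2, 53.3 and 66.4 CPM in p62F/F livers, a log2 fold change of -0.15 ± 0.22 (adjusted p = 0.892, edgeR). In both genes the p62Δhep libraries lay on either side of the p62F/F libraries or among them.

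Rpia was at 7.03, 6.33 and 3.93 CPM in p62Δhep livers and 5.36, 6.07 and 7.23 CPM in p62F/F livers. Idh1 was at 419, 444 and 326 CPM in p62Δhep livers and 447, 393 and 429 CPM in p62F/F livers. Me1 was the most uneven of the genes within these groups, at 152, 90.8 and 54.7 CPM in p62Δhep livers and 59.8, 126 and 84.0 CPM in p62F/F livers. The ranges of all 3 overlapped, with log2 fold changes of -0.12 ± 0.26, -0.10 ± 0.17 and 0.13 ± 0.40 in the order Rpia, Idh1, Me1 (SE). Pgls, Rpe and Taldo1 overlapped as well, at log2 fold changes of -0.14, 0.06 and 0.01. For 2 of the 10 genes the ranges were apart, 1 lower and 1 higher, as they were for 13.0% of all genes tested (6.38% lower, 6.60% higher). Tkt was at 88.5, 97.7 and 80.4 CPM in p62Δhep livers and 97.9, 118.8 and 104.5 CPM in p62F/F livers (log2 fold change -0.28 ± 0.14, adjusted p = 0.649, edgeR). H6pd was at 579, 584 and 695 CPM in p62Δhep livers and 515, 431 and 516 CPM in p62F/F livers (log2 fold change 0.34 ± 0.16, adjusted p = 0.648, edgeR). Neither difference passed the test.

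Whether the p62 effect itself differed between Tsc1-deleted and Tsc1-intact liver was tested in 1 model of all 12 libraries. The table and the Tsc1 genotype cannot be told apart, so a difference found here may also be one between the tables. G6pdx, Pgd and Idh1 were called, 3 of 10 genes, where 16.1% of 13231 genes were called, 6.76% higher and 9.32% lower. DESeq2 called 3 of 10 as well (22.8% of all genes), and 4 had an unadjusted p below 0.05 by edgeR (33.7% of all genes). The difference of the log2 fold changes was -2.61 ± 0.45 for G6pdx (SE, adjusted p = 0.00391, edgeR). G6pdx was lower with p62 loss in Tsc1-deleted liver, while no fall was shown in Tsc1-intact liver (-0.09 ± 0.29). The difference was -1.24 ± 0.37 for Pgd (adjusted p = 0.0408) and 0.86 ± 0.26 for Idh1 (adjusted p = 0.0419, both edgeR). G6pdx was called in each of 19 alternative analyses, with a difference between -2.91 and -2.39. Pgd lost its call without any 1 of 9 libraries (adjusted p from 0.0513 to 0.1), which were all but Tsc1Δhep libraries 2 and 3 and p62Δhep library 1. Idh1 lost its call without any 1 of the 12 libraries except Tsc1Δhep library 3 (adjusted p from 0.0527 to 0.103), with library totals alone (0.203) and with no filter on low counts (0.0659). The count of 3 fell to 1 without any 1 of 9 libraries, namely those whose loss also ended the call of Pgd. For Rpia the difference was -0.81 ± 0.35 (adjusted p = 0.131, edgeR), and for the other 6 genes it was between -0.16 and 0.46.

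Set side by side without a test, the order of the 4 groups differed between genes. G6pdx and Pgd had their only high level in Tsc1Δhep livers, 5.19 and 2.28 times the mean of p62F/F livers, while in Tsc1/p62Δhep livers they were at 0.804 and 0.881 times that mean. In both genes the Tsc1/p62Δhep, p62Δhep and p62F/F libraries overlapped. Tkt was high in both Tsc1-deleted groups, at 1.76 times the p62F/F mean in Tsc1/p62Δhep and 2.06 times in Tsc1Δhep livers, with no overlap with either Tsc1-intact group. Rpe and Taldo1 also had their higher means in these 2 groups, although the Tsc1Δhep ranges overlapped those of p62F/F livers. Idh1 was highest in Tsc1/p62Δhep livers, at 1.51 times the p62F/F mean, and the other 3 groups overlapped. H6pd was highest in p62Δhep livers, above all libraries of the other groups. Me1 overlapped between all neighbours in the order of means.

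Levels per kilobase of exon allow a rough comparison between genes. The length merged all annotated exons of a gene, and the annotation used in counting is not stated. Close ranks may therefore depend on the length taken. By this measure Idh1 was the highest of the 10 in every group. It was at 231 CPM per kilobase in Tsc1/p62Δhep, 135 in Tsc1Δhep, 143 in p62Δhep and 153 in p62F/F livers. H6pd followed at 91.4, 75.6, 118 and 93.0 CPM per kilobase in the same order of groups. Rpia was the lowest in every group at 0.775, 1.47, 1.08 and 1.16 CPM per kilobase. G6pdx, at 1.88, 12.1, 2.22 and 2.34, was the second lowest except in Tsc1Δhep livers, where Pgls was below it at 9.37 CPM per kilobase. Among the 5 enzymes that make NADPH, G6pdx was the lowest per kilobase in all 4 groups.

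**Figure D3:**
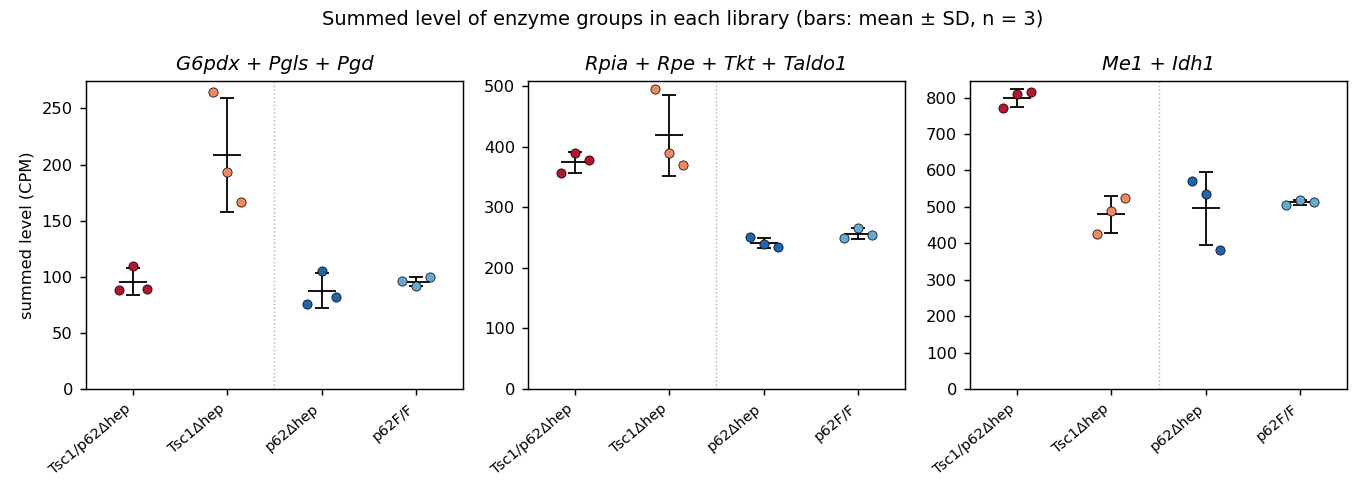
Summed level in CPM (vertical axes) of the oxidative branch, the non-oxidative branch and Me1 with Idh1 in each library, with bars for the mean ± SD (n = 3 in each group). The oxidative branch stands at 88.1 to 109.9 CPM in Tsc1/p62Δhep livers, against 166 to 265 CPM in Tsc1Δhep livers, and Me1 with Idh1 at 770 to 817 CPM against 426 to 526 CPM.

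Summed over genes, the oxidative branch was at 95.7 ± 12.3 CPM in Tsc1/p62Δhep livers, against 208 ± 50.8 CPM in Tsc1Δhep livers (SD, n = 3 each). It was at 87.5 ± 15.7 CPM in p62Δhep livers, against 95.7 ± 3.95 CPM in p62F/F livers. Me1 and Idh1 together were at 799 ± 24.8 CPM in Tsc1/p62Δhep and 480 ± 50.7 CPM in Tsc1Δhep livers. All 10 genes came to 1747 ± 97.6 CPM in Tsc1/p62Δhep and 1503 ± 7.55 CPM in Tsc1Δhep livers, so the sum over the list was not lower where the oxidative branch was. The oxidative branch made up 5.47% of that sum in Tsc1/p62Δhep and 13.9% in Tsc1Δhep livers. These sums are descriptions with no test.

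Ratios within a library do not depend on the scaling of libraries. G6pdx was at 2.90, 4.11 and 2.22 counts per 100 of Tkt in Tsc1/p62Δhep livers, against 17.5, 22.5 and 11.5 in Tsc1Δhep livers. It was at 5.003, 8.91 and 9.14 per 100 of Tkt in p62Δhep and 5.93, 7.41 and 6.70 in p62F/F livers. By this ratio every Tsc1/p62Δhep library was also below every Tsc1-intact library. Tkt itself, however, stood at 1.76 times the p62F/F mean in Tsc1/p62Δhep livers, with no overlap with either Tsc1-intact group. G6pdx in CPM overlapped between Tsc1/p62Δhep livers and both of those groups. The ratio of Pgd has the same denominator. Pgd was at 29.8, 32.4 and 21.5 per 100 of Tkt in Tsc1/p62Δhep livers, against 78.1, 55.9 and 48.9 in Tsc1Δhep livers, 50.2 to 75.1 in p62Δhep and 44.9 to 63.5 in p62F/F livers. Rpia was at 8.13 to 8.98 per 100 of Rpe in Tsc1/p62Δhep livers, below the 12.9 to 21.6 of Tsc1Δhep, the 10.7 to 17.0 of p62Δhep and the 14.2 to 18.4 of p62F/F livers. G6pdx per 100 of H6pd was at 1.03 to 1.46 in Tsc1/p62Δhep and 6.04 to 13.2 in Tsc1Δhep livers, and at 0.765 to 1.49 in p62Δhep and 1.13 to 2.04 in p62F/F livers. Pgls per 100 of Taldo1 was nearly even, from 21.9 to 33.7 over all 12 libraries. Rpe, the denominator for Rpia, was likewise higher in Tsc1/p62Δhep livers, at 1.3 times the p62F/F mean. Ratios across the tables were not tested.

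**Figure D4:**
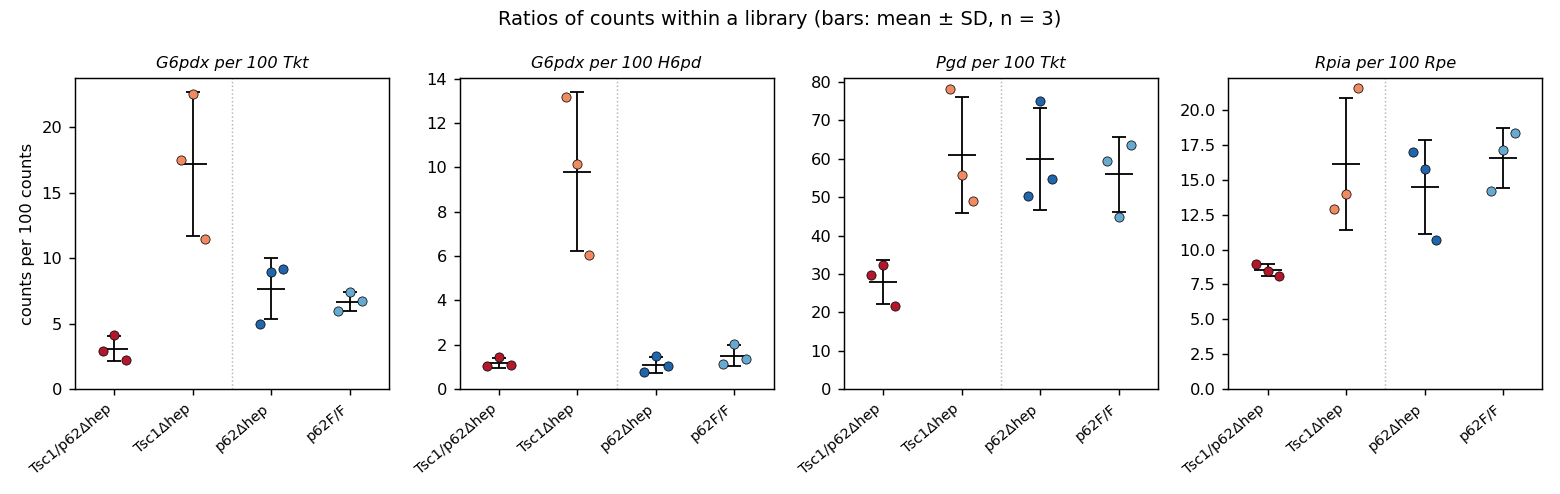
Ratios of counts within each library, in counts of the gene named per 100 counts of the gene it is set against (vertical axes), by group, with a point for each library and bars for the mean ± SD (n = 3). G6pdx per 100 of Tkt lies at 2.22 to 4.11 in Tsc1/p62Δhep livers, below all 9 libraries of the other groups, and at 11.5 to 22.5 in Tsc1Δhep livers, above them. Tkt itself is higher in Tsc1/p62Δhep livers than in both Tsc1-intact groups, where G6pdx in CPM overlaps.

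Enzymes of a list drawn up for other NADPH and NADP supply moved both ways with p62 loss in Tsc1-deleted liver. Which cofactor each of them uses in liver was not tested. Of 12 tested, 2 were higher and 4 were lower in Tsc1/p62Δhep than in Tsc1Δhep livers (median log2 fold change -0.39). Over all genes tested, 9.25% were called higher and 14.9% lower, with a median of -0.05. Mthfd2, a mitochondrial folate enzyme, was at 0.686 to 1.53 CPM in Tsc1/p62Δhep and 33.2 to 44.9 CPM in Tsc1Δhep livers (adjusted p = 0.000466, edgeR). Me2, a mitochondrial malic enzyme, was at 1.17 to 1.65 CPM in Tsc1/p62Δhep and 14.2 to 97.4 CPM in Tsc1Δhep livers (adjusted p = 0.00563, edgeR). Mthfd1, the cytosolic folate enzyme, was at 311 to 348 CPM in Tsc1/p62Δhep and 50.2 to 132.9 CPM in Tsc1Δhep livers (adjusted p = 0.00947, edgeR). Aldh1l2, which makes NADPH from mitochondrial folate, was at 0.206 to 0.637 CPM in Tsc1/p62Δhep and 2.56 to 18.7 CPM in Tsc1Δhep livers (adjusted p = 0.00718, edgeR). The other two called were chosen for naming after their values were seen. Aldh1l1, the cytosolic partner of Aldh1l2, was at 855 to 2078 CPM in Tsc1/p62Δhep and 372 to 538 CPM in Tsc1Δhep livers, and Idh2, the mitochondrial counterpart of Idh1, at 147 to 199.7 CPM in Tsc1/p62Δhep and 275 to 324 CPM in Tsc1Δhep livers (adjusted p = 0.0146 and 0.0325, edgeR). Of 11 other enzymes of pentose and nucleotide sugar use, 3 rose in Tsc1/p62Δhep livers and none fell. Shpk, which makes sedoheptulose 7-phosphate, rose by 1.47, and Dcxr and Sord, which handle xylulose and sorbitol, rose by 1.30 and 1.10 on the log2 scale (adjusted p = 0.00862, 0.0133 and 0.014, edgeR).

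NADPH-consuming enzymes were divided as well, with 4 of 13 higher and 3 lower in Tsc1/p62Δhep than in Tsc1Δhep livers. For all genes tested these shares were 9.25% higher and 14.9% lower. Por, which passes electrons from NADPH to cytochrome P450, was at 470 to 829 CPM in Tsc1/p62Δhep and 172 to 243 CPM in Tsc1Δhep livers, and Txnrd2, the mitochondrial thioredoxin reductase, at 32.2 to 37.1 and 13.2 to 17.4 CPM in the same order (adjusted p = 0.00743 for both, edgeR). Nqo1, a quinone reductase, was at 8.79 to 12.8 CPM in Tsc1/p62Δhep and 31.0 to 100.2 CPM in Tsc1Δhep livers (adjusted p = 0.00566, edgeR). Cbr3, a carbonyl reductase, was at 0.443 to 1.53 CPM in Tsc1/p62Δhep and 29.9 to 251 CPM in Tsc1Δhep livers (adjusted p = 0.00292, edgeR). Cbr3 was also the only gene of this list called in p62Δhep against p62F/F livers, at 0.626 to 0.971 CPM against 6.12 to 8.68 CPM (adjusted p = 0.0247, edgeR). Cbr1, a second carbonyl reductase named after its values were seen, also fell in Tsc1/p62Δhep against Tsc1Δhep livers.

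Of 19 NRF2 targets outside NADPH supply, 7 fell in Tsc1/p62Δhep against Tsc1Δhep livers and none rose. Among all genes tested there, 14.9% were called lower and 9.25% higher. The median log2 fold change was -0.80 over the list and -0.05 over all genes. Cbr3, Nqo1, Txnrd1 and Gsr also stand among the NADPH-consuming enzymes, so the falls of Cbr3 and Nqo1 were counted in both lists. Abcc4, an export pump, was at 5.99 to 6.86 CPM in Tsc1/p62Δhep and 95.3 to 205.8 CPM in Tsc1Δhep livers, and Srxn1, sulfiredoxin, at 61.4 to 80.5 and 163 to 267 CPM in the same order. Slc7a11, the cystine transporter, was at no more than 0.823 CPM in Tsc1/p62Δhep and at 98.4 to 257 CPM in Tsc1Δhep livers. In p62Δhep against p62F/F livers 1 of the 19 was called, which was Cbr3, and it was lower. The median log2 fold change of the 19 was -0.49 there, against 0.0 over all genes tested. Only 2 of 12567 genes were called by edgeR in that comparison, so an uncalled gene was not shown to be unchanged. Of 14 lipogenic genes tested, Slc25a1, the citrate carrier, and Scd1, the stearoyl-CoA desaturase, rose by 0.93 and 1.79 on the log2 scale in Tsc1/p62Δhep livers (adjusted p = 0.0251 and 0.0321, edgeR), and none fell. Of 14 regulators, Sqstm1 and Myc fell, and Thrb, a thyroid hormone receptor, Bach1 and Mafg rose, by 0.86, 1.08 and 0.92 on the log2 scale. BACH1 is a repressor at antioxidant response elements, and MAFG a small partner of NRF2 and BACH1. The mRNA of Nfe2l2 was at 80.4 to 99.2 CPM in Tsc1/p62Δhep and 85.0 to 95.1 CPM in Tsc1Δhep livers (log2 fold change 0.02, adjusted p = 0.944, edgeR). In 14 cell cycle genes, 8 fell and none rose, among them Mki67 and Top2a at log2 fold changes of -3.58 and -3.52.

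Markers of cell types moved between the same groups, where 9.25% of all genes tested were called higher and 14.9% lower. In liver pieces, fewer cells of a type and less RNA per cell cannot be told apart. Of 14 hepatocyte markers 7 were higher and none lower in Tsc1/p62Δhep than in Tsc1Δhep livers, with sums of 104100 to 138100 and 39010 to 74490 CPM. Of 12 macrophage and Kupffer markers 7 were lower and none higher. The 7 were Cd68, Itgam, Ccr2, Lyz2, Csf1r, Adgre1 and Ly6c2. The 5 not called were Marco, Timd4, Clec4f, Cd5l and Vsig4, at log2 fold changes of 2.68, 1.39, 0.38, 0.17 and -0.11. Sums over the 12 were 110 to 127 CPM in Tsc1/p62Δhep and 260 to 416 CPM in Tsc1Δhep livers. These sums were 495 to 816 CPM in p62Δhep and 457 to 508 CPM in p62F/F livers. Within the list the order of groups differed: the mean of Lyz2 was 161 CPM in Tsc1Δhep livers, above those of the other 3 groups, as that of G6pdx was, while Cd5l and Clec4f had their higher means in the Tsc1-intact groups. Of 7 cholangiocyte and progenitor markers tested 2 were lower, with sums of 100.5 to 143 CPM in Tsc1/p62Δhep and 767 to 5080 CPM in Tsc1Δhep livers, and the called genes were Spp1, which made up most of the sum, and Sox9. In the stellate and fibroblast list 4 of 9 were lower (Acta2, Col1a1, Col1a2 and Col3a1). Not called were Lrat, Reln, Dcn, Des and Pdgfrb, at log2 fold changes of 2.13, 2.02, 1.70, 0.27 and -0.43. Sums of that list overlapped, at 214 to 286 CPM in Tsc1/p62Δhep and 55.1 to 314 CPM in Tsc1Δhep livers. In the endothelial list 1 of 7 was lower (Pecam1), and the 6 not called lay between -2.16 (Lyve1) and 1.19 (Stab2). Only 2 of 6 matched neutrophil genes passed the filter on low counts, S100a8 and S100a9, and both were lower. Neutrophil sums were 0.343 to 0.823 CPM in Tsc1/p62Δhep and 2.01 to 10.9 CPM in Tsc1Δhep livers. At those sums a gene could hardly pass without being higher in Tsc1Δhep livers, so these calls carry little weight. Elane, a gene of the neutrophil list that was not tested in this comparison, had 0 counts in the Tsc1/p62Δhep libraries. It had 0, 0 and 4 counts in the Tsc1Δhep libraries. The neutrophil sums were 6.04 to 76.6 CPM in p62Δhep and 7.57 to 99.8 CPM in p62F/F livers. Of 3 erythroid genes tested 1 was higher (Alas2), and the single gene tested of each of the lymphocyte and adipocyte lists was not called. The part of these cell types in the levels of G6pdx, Pgd, Rpia and Idh1 was not tested.

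Over the 12 libraries, with each table centred on its own mean, the genes most like G6pdx were Fam114a1, Cgref1 and Naaa (Pearson r = 0.980, 0.980 and 0.978 of log2(CPM + 1), among 10998 genes). Cgref1 was at 0.823, 2.10 and 1.46 CPM in Tsc1/p62Δhep livers, against 41.0, 26.1 and 15.7 CPM in Tsc1Δhep livers. It was at 1.51 to 3.63 CPM in p62Δhep and 1.88 to 3.38 CPM in p62F/F livers. Those most like Pgd were Lacc1, Nras and Cd2ap (r = 0.959, 0.959 and 0.956), and those most like Me1 were Tmem56, Gpr98 and Angel2 (r = 0.854, 0.852 and 0.843). The libraries share their groups and tables, so these are descriptions of likeness with no p.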

How the data were processed

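The authors deposited 2 tables of raw counts per gene, 6 libraries each, with no normalization. Per the labels' protocols, liver was frozen and its RNA taken up in Trizol, and strand-directed libraries of poly(A) RNA were sequenced single-end on a NextSeq 500 or paired-end on a HiSeq 2000, without saying which library ran on which. The submitters' processing notes name build hg19, although the gene symbols are those of mouse. The aligner, counter and annotation are not stated in the labels, so reads that fit several genes may have been dropped or split. The name of the table with the Tsc1-deleted groups holds the word NORMAL, which is not explained.

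Groups and library numbers came from the sample titles. Library totals were 15792048 to 33377247 counts. The chi-square per gene between libraries of a group was 36.2 to 325 (genes with at least 20 counts), so none was counted as a duplicate. Genes were kept with filterByExpr of edgeR 4.0.16 (10 counts after scaling, 15 in total), scaled by TMM and tested by its quasi-likelihood F-test, with p-values adjusted by Benjamini-Hochberg over all genes of the fit and called below 0.05, in R 4.3.3. Comparisons were fitted within a table, and the difference between their effects in 1 model of 12 libraries. CPM in the text were scaled by TMM over all 12 libraries, and their sums over enzymes carry no test. The code was tested on simulated data.

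Alternatives were RLE size factors, library totals alone, no filter on low counts, DESeq2 1.42.0, limma 3.58.1 on log2(CPM + 1), each library left out, the library number as a block and all 12 libraries in 1 fit. Gene positions and overlaps were read from an annotation of GRCm38 and promoters from RefSeq on GRCm38.p6. The text names the 10 enzymes, up to 4 genes per pathway list with the smallest p (7 pathway lists and 9 lists of cell type markers, with 174 of 177 genes matched), Sqstm1, Tsc1, and the 3 genes most like G6pdx, Pgd and Me1 among genes with a mean of at least 50 counts. Genes outside that rule were named after their values were seen, and the results of some list genes are not reported here. The members and lists were chosen with earlier results of these data known.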

Additional observations from a re-analysis of the deposited data

Results flagged for a closer look

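For 3 genes the effect of p62 loss differed between Tsc1-deleted and Tsc1-intact liver by a test of the difference itself, the interaction in 1 model of 12 libraries (edgeR's quasi-likelihood test). The difference was -2.61 on the log2 scale for G6pdx (adjusted p = 0.00391), which was lower in 3 of 3 Tsc1/p62Δhep libraries than in any Tsc1Δhep library and overlapped between p62Δhep and p62F/F. It was -1.24 for Pgd (adjusted p = 0.0408), with the same separation and overlap. It was 0.86 for Idh1 (adjusted p = 0.0419), which was higher in 3 of 3 Tsc1/p62Δhep libraries than in any Tsc1Δhep library. Cre was present in 3 of the 4 groups and absent from p62F/F, which the test does not remove. The test also cannot tell the Tsc1 genotype apart from the table that each pair of groups stood in.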

How the results depend on the processing

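In Tsc1/p62Δhep against Tsc1Δhep the count of 4 called genes was 1 to 4 with 1 library left out, and 2 (G6pdx and Pgd) with the replicate block. In the difference of effects the count of 3 was 1 to 3 with 1 library left out, and 1 (G6pdx) with the replicate block. In p62Δhep against p62F/F it was 0 throughout. Library numbers did not pair the samples: same-numbered libraries correlated at -0.084, -0.085 and -0.129 in the Tsc1-deleted groups and at -0.418, -0.528 and 0.032 in the Tsc1-intact groups. Some differently numbered libraries of the Tsc1-intact groups were alike. The correlation was 0.542 for p62Δhep library 1 with p62F/F library 2, and 0.409 for p62Δhep library 2 with p62F/F library 1. The remaining pairs of these groups were at -0.178 to 0.171. Pairs across numbers were not modelled. Library totals alone moved the median of all genes by -0.35 (Tsc1-deleted) and -0.32 (difference) on the log2 scale, and the share of calls that were higher to 14.7% from 38.2% and to 14.9% from 42.0%.

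Calls over all genes in Tsc1/p62Δhep against Tsc1Δhep, 3053 in all, were 1111, 1182 and 1885 without Tsc1/p62Δhep library 1, 2 and 3, and 3068, 1610 and 5825 without Tsc1Δhep library 1, 2 and 3. They were 1847 with the block and 5201 in 1 fit of 12 libraries. In p62Δhep against p62F/F there were 2 calls by edgeR, 169 by DESeq2, 4 by limma and 49 without p62F/F library 1. In the difference, 2127 calls became 911 with the block, 4952 without Tsc1Δhep library 3, 1169 to 1987 without 1 p62Δhep library and 3904 without the pair of doubted libraries.

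Only uncalled genes changed sign, and the cause was not tested. In Tsc1/p62Δhep against Tsc1Δhep, Pgls was at -0.25 and H6pd at -0.08 with library totals alone. With 1 library left out, Pgls was at -0.03 to 0.20, Rpe at -0.28 to 0.19 and Taldo1 at -0.23 to 0.20. In p62Δhep against p62F/F, Taldo1 was at -0.01 with library totals alone. With 1 library left out, G6pdx was at -0.30 to 0.15, Rpia at -0.29 to 0.10, Taldo1 at -0.03 to 0.09, Me1 at -0.31 to 0.46 and Idh1 at -0.19 to 0.02. In the difference, Pgls was at -0.09 and Tkt at -0.27 with library totals alone. With 1 library left out, Rpe was at -0.36 to 0.12, Tkt at -0.03 to 0.14, Taldo1 at -0.26 to 0.18 and H6pd at -0.21 to 0.02. H6pd was at 0.04 without the pair of doubted libraries.

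The depth behind G6pdx and Rpia in Tsc1/p62Δhep livers was 62 to 126 counts per library, the lowest among the 10 genes, and with 3 libraries a group the spread between libraries limits every call.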

Other observations

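Tigar, a phosphatase known to steer glucose 6-phosphate into the pentose phosphate pathway, was listed under an older symbol. It was at 14.3, 16.9 and 18.9 CPM in Tsc1/p62Δhep livers, against 27.1, 23.5 and 29.9 CPM in Tsc1Δhep livers. It was at 19.7, 20.6 and 16.3 CPM in p62Δhep livers, against 19.3, 10.03 and 13.4 CPM in p62F/F livers. Neither comparison passed the test (adjusted p = 0.0545 and 0.701, edgeR), whereas the difference of the log2 fold changes did, at -1.09 ± 0.32 (SE, adjusted p = 0.0412, edgeR). Srebf1, a driver of lipogenic genes, was at 164 to 254 CPM in Tsc1/p62Δhep and 49.3 to 149.6 CPM in Tsc1Δhep livers, and at 114 to 186 CPM in p62Δhep and 212 to 352 CPM in p62F/F livers. Neither comparison of Srebf1 passed the test (adjusted p = 0.0691 and 0.448, edgeR), and the difference of its log2 fold changes was 2.05 ± 0.53 (adjusted p = 0.0224, edgeR).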
